A study of Mus musculus with 6 samples.

Results

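Elastic fibres give lung tissue its recoil, and 10 genes that build them were followed in ribosome-bound RNA of Pdgfrb-Cre cells, taken from the lungs of control mice and of Yap1,Wwtr1 iPCKO mutants. The set held elastin (Eln), the microfibril proteins Fbn1, Fbn2, Mfap2, Mfap4 and Mfap5, the linking fibulins Fbln5 and Efemp2, and the crosslinking enzymes Lox and Loxl1. They were chosen by symbol, for their known part in fibre assembly, from the 21603 genes in the data. Earlier results of these data were known at that point. All 10 passed the filter on low values. The question was whether the lower Eln level of the mutant cells extended to its scaffold and its crosslinkers. All levels given are of RNA, not of protein. In mutant lungs of a slightly younger age, the study reported no significant change of tropoelastin protein by staining or immunoblot.

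Tropoelastin, the soluble product of Eln, is secreted and gathers into globules that are laid down on microfibrils, which are beaded filaments of fibrillin. Fibulins bring the elastin globules and the crosslinking enzymes to that scaffold, and lysyl oxidases then join the elastin chains into an insoluble polymer. In the newborn lung, fibres of this kind form at the tips of the growing secondary septa, where myofibroblasts are known as the main elastin producers.

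The data came from 6 lungs of C57BL/6 mice at postnatal day 8, with 3 control and 3 Yap1,Wwtr1 iPCKO animals. Control mice were Yap1+/-;Wwtr1+/- and iPCKO mice were Yap1-/-;Wwtr1-/-, where the lost copies were loxP-flanked alleles deleted by Cre. All 6 animals carried Pdgfrb(BAC)-CreERT2, a tamoxifen-activated Cre driven by Pdgfrb sequences that marks pericytes in the lung, and the RiboTag allele, which places an HA tag on the ribosomal protein RPL22 of recombined cells. Tamoxifen had been given in the days after birth. The controls had therefore lost 1 copy of each gene in the same cells, and a wild-type group was not part of the comparison. Values are RPKM, read numbers divided by exon length and by library depth, so levels can be set side by side between genes as well as between mice.

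The targeted genes gave different readings. Yap1 was 13.21, 11.49 and 12.35 RPKM in controls 1 to 3 and 5.76, 5.83 and 5.25 RPKM in iPCKO libraries 1 to 3, a log2 fold change of -1.12 (SE 0.09, limma adjusted p = 0.00017). Wwtr1 averaged 60.39 ± 9.48 RPKM in controls and 61.98 ± 1.63 in iPCKO libraries (SD, n = 3 each, limma adjusted p = 0.82). The deletion of Wwtr1 was thus not seen in these gene-level values, from which single exons cannot be read. The depth of the libraries, inferred from the spacing of low values, ran from 14.26 to 39.64 M reads, and log2 values correlated at 0.977 to 0.992 within groups and at 0.929 to 0.962 between them. Transcripts of Y-linked genes were present in 2 of 3 controls and in 0 of 3 iPCKO libraries, with control 2 the control that lacked them. Marker genes of neutrophils summed to 86.7 to 129.2 RPKM in controls and 446.8 to 4932.9 RPKM in iPCKO libraries, and markers of leukocytes to 58.6 to 81.9 against 149.9 to 259.9 RPKM. The part of neutrophils and leukocytes in the results was not tested. The presence of Y-linked transcripts went partly with genotype, so the 2 cannot be fully told apart. Fits with Y-linked transcripts as a covariate and fits without single libraries are given below. In such bulk RNA, fewer cells of a type and less RNA per cell cannot be told apart.

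Eln fell and Fbln5 fell less, while the microfibril genes, Efemp2 and Loxl1 did not pass the test and Lox missed it narrowly. Which of Fbln5 and Lox passed depended on the variance model, as given with each gene. A gene was called changed when its adjusted p was under 0.01 and its log2 fold change over 0.5 in size, in limma on log2(RPKM + 0.1) over 12034 genes. By this rule 2 of 10 genes, Eln and Fbln5, were lower and 0 were higher in iPCKO libraries. The lower Eln level was the starting point of the question. The counts and the median over the 10 therefore include a gene already known to be lower. Among all genes tested, 2.68% were called lower, 4.11% higher and 6.79% in either direction. At an unadjusted limma p below 0.05, 3 of the 10 genes were lower and 0 higher. The share of all tested genes at this unadjusted cut was not counted. Counts at it, here and below, therefore have no background to be read against. The median log2 fold change of the 10 was -0.27, with 8 of 10 below 0, beside a median of -0.0 over all genes tested and 50.0% of them below 0. In 4 of 10 genes every iPCKO library was below every control, against 17.1% of all genes, and in 0 of 10 was every iPCKO library above, against 18.3%. Groups that did not overlap in either direction made up 35.5% of all genes.

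Eln (ENSMUSG00000029675), at chr5:134702593-134747323 on the minus strand of GRCm38, encodes the elastic core itself and was the highest of the set in every library. Its level was 1504.46, 2000.68 and 1601.93 RPKM in controls 1 to 3 and 783.73, 833.85 and 558.23 RPKM in iPCKO libraries 1 to 3. All iPCKO libraries were well below all controls, with the lowest value in iPCKO 3. The iPCKO mean of 725.27 ± 146.82 RPKM was 42.6% of the control mean of 1702.36 ± 262.91 RPKM (SD, n = 3 each), a log2 fold change of -1.24 (SE 0.20, 95% interval -1.70 to -0.79, limma adjusted p = 0.0042). Eln was the gene with rank 3, 2 and 2 by RPKM among all 21603 genes in the 3 controls and had rank 16, 10 and 26 in the 3 iPCKO libraries. The call was lost when control 1, 2 or 3 was left out (adjusted p = 0.014, 0.016 and 0.019) and when iPCKO 3 was left out (adjusted p = 0.015), with log2 fold changes between -1.35 and -1.06 over the 6 such limma fits. Against control 2 alone, the control without Y-linked transcripts, the log2 fold change of Eln was -1.49 (limma adjusted p = 0.085), and controls 1 and 3 were lower than control 2 by a mean log2 difference of -0.37. About 64445 to 450083 reads lay behind each Eln value, estimated from depth and exon length, so counting error was small beside the spread between mice. The fewest reads, about 689 in 1 library, lay behind Mfap5.

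**Figure D1:**
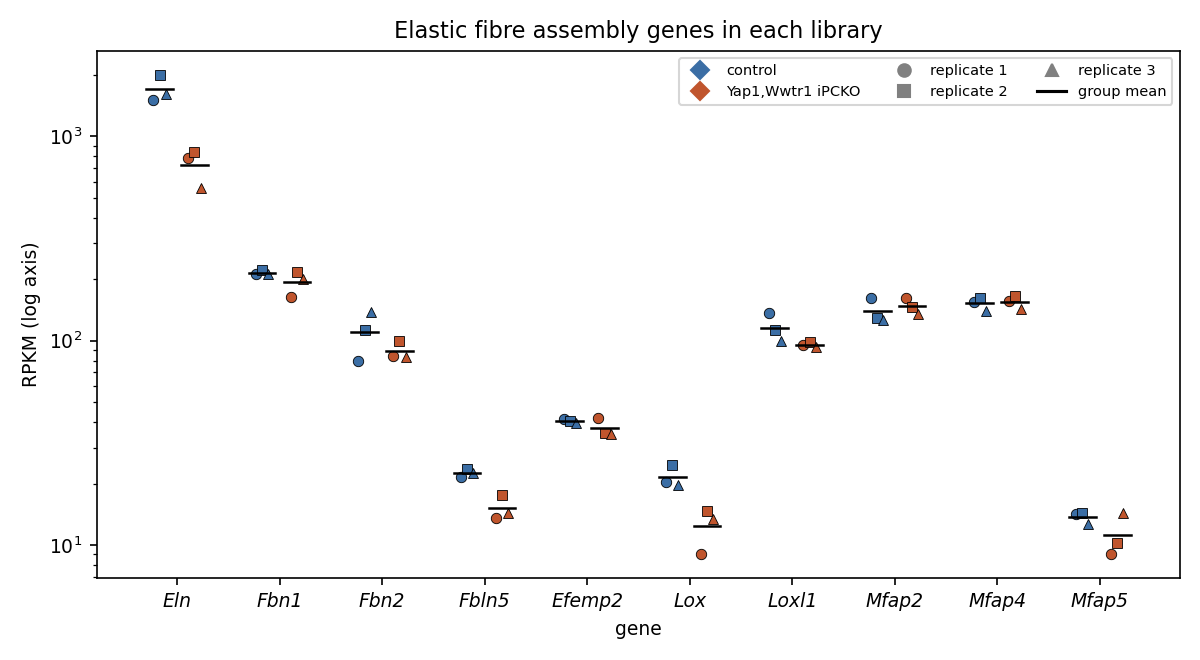
RPKM (log axis) of the 10 elastic fibre genes in each of 3 control (blue) and 3 Yap1,Wwtr1 iPCKO (orange) libraries, with symbols for replicate numbers and black lines for group means. Eln, Fbln5, Lox and Loxl1 have all orange points below all blue points, and the points of the other 6 genes overlap.

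The fibrillins are the backbone of the microfibril. Fbn1, the main fibrillin of postnatal tissue, was 212.54, 221.19 and 211.79 RPKM in controls and 164.46, 216.19 and 200.45 RPKM in iPCKO libraries. Both iPCKO 1 and iPCKO 3 lay below every control, iPCKO 1 the further, while iPCKO 2 lay among the controls. The iPCKO mean was 90.0% of the control mean, with a log2 fold change of -0.16 and a 95% interval of -0.44 to 0.12 (limma adjusted p = 0.43). Fbn2, the fibrillin known best from embryonic tissue, was 79.74, 113.10 and 137.79 RPKM in controls and 84.10, 100.07 and 83.51 RPKM in iPCKO libraries. The controls spread widely, from below to above all iPCKO libraries. The log2 fold change of Fbn2 was -0.27 with an interval of -0.70 to 0.15 (limma adjusted p = 0.37), and the value moved to -0.49 without control 1 (adjusted p = 0.048) and to -0.09 without control 3 (adjusted p = 0.81). Both intervals of the full fit excluded -1.24, the estimate for Eln, but that estimate has its own interval of -1.70 to -0.79. The exclusion is thus no test of the difference from Eln, which was compared by ratios as given below. The ratio of Fbn1 to Fbn2 differed between groups by 0.11 on the log2 scale (SE 0.24, exact permutation p = 0.8).

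Mfap2 and Mfap5 encode the small glycoproteins MAGP1 and MAGP2, which bind fibrillin, and Mfap4 encodes a protein that binds both fibrillin and tropoelastin. Mfap2 was 162.36, 128.95 and 126.55 RPKM in controls and 160.93, 145.62 and 134.90 RPKM in iPCKO libraries. Mfap4 was 154.88, 161.57 and 139.73 RPKM in controls and 156.25, 166.36 and 142.12 RPKM in iPCKO libraries. For both genes the groups lay over each other. The log2 fold change of Mfap2 was 0.08 (interval -0.21 to 0.38, limma adjusted p = 0.70) and that of Mfap4 was 0.03 (interval -0.22 to 0.27, adjusted p = 0.90), and with quantile normalization both were below 0, at -0.06 and -0.1. Mfap5, the lowest of the set in the controls, was 14.12, 14.32 and 12.66 RPKM in controls and 9.07, 10.23 and 14.40 RPKM in iPCKO libraries. Libraries iPCKO 1 and iPCKO 2 were below every control and iPCKO 3 was above them all. Its log2 fold change was -0.31 (interval -0.67 to 0.05, adjusted p = 0.24), and without iPCKO 3 the value moved to -0.50, also not called.

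Fibulins connect elastin to the scaffold. Fbln5 (ENSMUSG00000021186), at chr12:101746565-101819055 on the minus strand of GRCm38, encodes fibulin-5, which binds tropoelastin and integrins and brings elastin to microfibrils. It was 21.52, 23.52 and 22.55 RPKM in controls and 13.54, 17.61 and 14.33 RPKM in iPCKO libraries. The controls lay close together and every iPCKO library was below them. The iPCKO mean of 15.16 ± 2.16 RPKM was 67.3% of the control mean of 22.53 ± 1.0 RPKM (SD, n = 3 each), a log2 fold change of -0.58 (SE 0.11, interval -0.83 to -0.32, limma adjusted p = 0.0094). This call was near the threshold and held in 1 of 6 limma fits that left out a library, the one without iPCKO 2 (adjusted p = 0.0067). Without control 1, 2 or 3 the adjusted p was 0.021, 0.039 and 0.04, and without iPCKO 1 or iPCKO 3 it was 0.021 and 0.038, with log2 fold changes between -0.69 and -0.50. With sample weights in limma the log2 fold change of Fbln5 was -0.43, below the fold threshold (adjusted p = 0.0043). Against control 2 alone the log2 fold change was -0.64 (adjusted p = 0.14).

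Efemp2 encodes fibulin-4, which brings lysyl oxidase to elastin. It was 41.60, 40.43 and 39.50 RPKM in controls and 41.78, 35.22 and 35.07 RPKM in iPCKO libraries. Libraries iPCKO 2 and iPCKO 3 were below the controls and iPCKO 1 was slightly above them. The log2 fold change was -0.12 with an interval of -0.34 to 0.10 (limma adjusted p = 0.44). The log2 ratio of Fbln5 to Efemp2, a comparison added after the data had been seen, was between -0.95 and -0.78 in controls and between -1.62 and -1.0 in iPCKO libraries. The ratio was thus lower in every iPCKO library, with a difference of -0.46 (SE 0.19, exact permutation p = 0.1, the smallest that 3 against 3 allows).

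Lox and Loxl1 encode copper enzymes that oxidise lysines of tropoelastin to start crosslinking. Lox, which also acts on collagen, was 20.27, 24.54 and 19.73 RPKM in controls and 9.06, 14.76 and 13.37 RPKM in iPCKO libraries. All iPCKO values were below all control values, with iPCKO 1 lowest. The iPCKO mean of 12.40 ± 2.97 RPKM was 57.6% of the control mean of 21.51 ± 2.63 RPKM (SD, n = 3 each). The log2 fold change of -0.81 (SE 0.18, interval -1.22 to -0.41) was larger than that of Fbln5, but its limma adjusted p of 0.017 missed the threshold of 0.01. Of all genes tested, 4.25% were lower past a looser adjusted p of 0.05 with the same fold threshold, and Lox was among these. It remained uncalled at 0.01 in all 6 fits without a library, with adjusted p between 0.013 and 0.059. With sample weights in limma Lox was called, at a log2 fold change of -0.61 (adjusted p = 0.0051). Against control 2 alone the log2 fold change of Lox was -1.01 (adjusted p = 0.14).

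Loxl1, the lysyl oxidase-like enzyme tied most closely to elastin, was 135.91, 112.65 and 99.45 RPKM in controls and 95.19, 97.99 and 93.16 RPKM in iPCKO libraries. The iPCKO libraries were all lower, but the highest of them, iPCKO 2, was close to control 3. Its mean was 82.3% of the control mean, with a log2 fold change of -0.27 and an interval of -0.55 to 0.01 (limma adjusted p = 0.18). The log2 ratio of Lox to Loxl1 differed by -0.54 (SE 0.26, exact permutation p = 0.2), and the groups overlapped. Loxl1 was the more abundant of these crosslinking enzymes in every library, at a control mean of 116.00 RPKM against 21.51 RPKM for Lox.

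**Figure D2:**
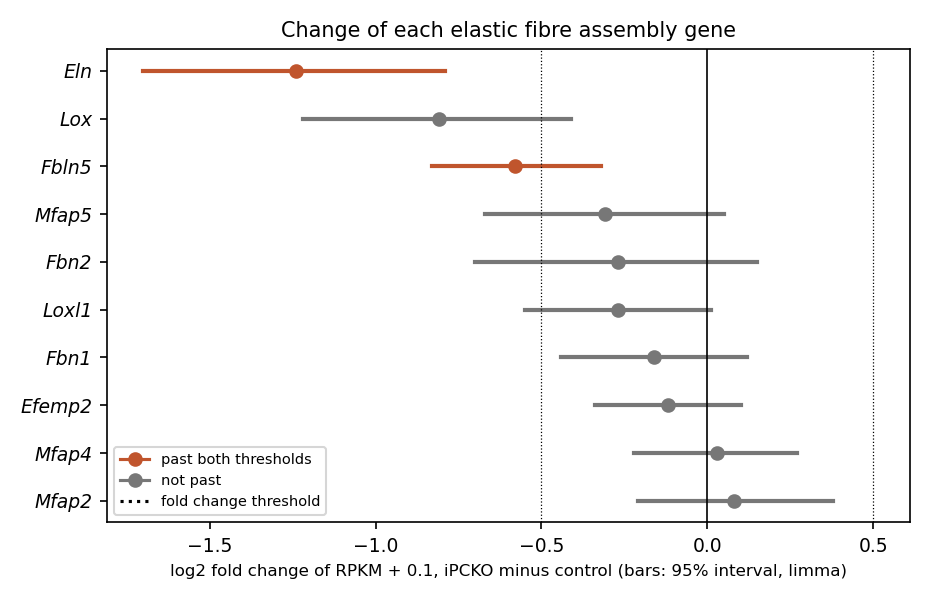
Log2 fold change of RPKM + 0.1, iPCKO minus control, of the 10 genes with 95% intervals from limma (n = 3 each), where orange marks genes past both thresholds and dotted lines mark an absolute change of 0.5. Eln at -1.24 and Fbln5 at -0.58 are past both, Lox at -0.81 is not, and the other 7 intervals include 0.

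Of the 10 genes, 6, namely Eln, Fbn1, Fbn2, Efemp2, Lox and Mfap4, shared exonic bases with an annotated gene on the opposite strand. The libraries were strand-specific, but the strand setting of the counting is not given in the sources used here, so reads of such a partner cannot be told apart in these genes. Fbln5, Loxl1, Mfap2 and Mfap5 had no overlapping gene.

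The lower Eln level was compared directly with each other gene by the per-library log2 ratio of Eln to that gene, with an exact permutation test over the 6 libraries for 9 ratios. In 8 of 9 ratios every iPCKO library was below every control. For these the exact permutation p is 0.1, the smallest possible value here, so none can pass 0.05. All 9 ratios share Eln as numerator, and Eln alone had no overlap between groups. A lack of overlap against a gene that changed little therefore restates the lower Eln level and is not a separate result. Of the 9, the largest differences were those to Mfap2, at -1.33 (SE 0.26), and to Mfap4, at -1.27 (SE 0.16). Those to the fibrillins were -1.08 (SE 0.25) for Fbn1 and -0.97 (SE 0.26) for Fbn2. Efemp2 gave -1.12 (SE 0.21), Loxl1 -0.97 (SE 0.26) and Mfap5 -0.93 (SE 0.39), which became -0.56 without iPCKO 3. These 7 differences lay between -1.33 and -0.93, beside the log2 fold change of -1.24 for Eln alone.

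The ratio of Eln to Fbln5 changed less, by -0.66 (SE 0.19), again with no overlap. The ratio of Eln to Lox was the exception. It was between 6.21 and 6.34 in controls and between 5.37 and 6.42 in iPCKO libraries, a difference of -0.43 (SE 0.31, exact permutation p = 0.4). It was -0.70 without iPCKO 1 and -0.18 without iPCKO 3. The iPCKO 1 library, lowest for Lox, had the highest ratio of all, and iPCKO 3, lowest for Eln, had the lowest. In RPKM, Eln was 74.2, 81.5 and 81.2 times the level of Lox in controls and 86.5, 56.5 and 41.7 times in iPCKO libraries. Adjusted over the 9 ratios no p can be below 0.1.

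**Figure D3:**
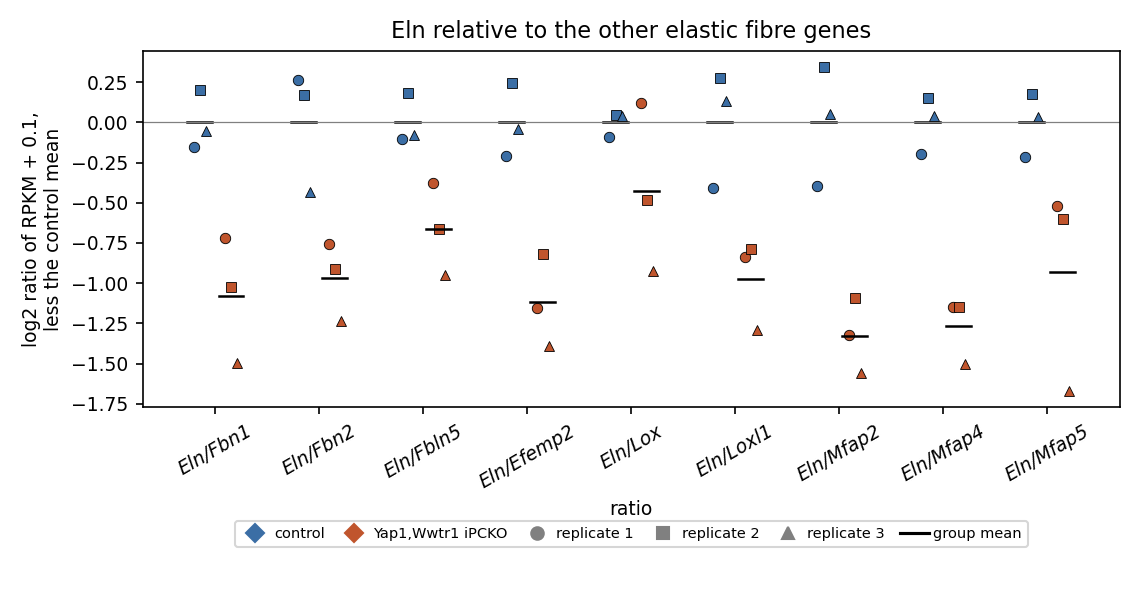
Per-library log2 ratio of Eln to each of the other 9 genes (RPKM + 0.1), shifted so that the control mean is 0, for 3 control (blue) and 3 iPCKO (orange) libraries, with black lines for group means. The iPCKO points are below all control points in 8 ratios and overlap them in the ratio of Eln to Lox.

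The makeup of the set shifted with Eln. The 10 genes summed to 2347.4, 2840.9 and 2411.7 RPKM in controls and to 1518.1, 1637.9 and 1289.5 RPKM in iPCKO libraries. Eln made up 64.1%, 70.4% and 66.4% of this sum in controls and 51.6%, 50.9% and 43.3% in iPCKO libraries. The other 9 genes together summed to 842.9, 840.3 and 809.7 RPKM in controls and to 734.4, 804.0 and 731.3 RPKM in iPCKO libraries. That sum was lower in every iPCKO library, but only just in iPCKO 2. The number of Eln RPKM per RPKM of Fbn1, a simple measure of elastin message over scaffold message, was 7.08, 9.05 and 7.56 in controls and 4.77, 3.86 and 2.78 in iPCKO libraries. In the controls the order of levels after Eln ran from Fbn1 through Mfap4, Mfap2, Loxl1 and Fbn2 to Efemp2, Fbln5, Lox and Mfap5. The order of the group means was the same in the iPCKO libraries. Neighbours whose control ranges overlapped were Mfap4 and Mfap2, Mfap2 and Loxl1, Loxl1 and Fbn2, and Fbln5 and Lox.

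Sequence in front of the genes was looked at because YAP1 and TAZ, the products of Yap1 and Wwtr1, act through TEAD factors, which bind DNA. Windows of 250 bases before a RefSeq start site on GRCm38.p6 were examined for 4 of 10 genes. These were Fbn1, Fbln5, Efemp2 and Mfap2, with 8 windows in all. The letters GGAATG, a core TEAD motif, or CATTCC on the other strand, were found in 1 of the 8 windows, in front of Mfap2. Over all 32851 windows of this length 12.6% held the motif, and 14.4% of genes had it in at least 1 window, so a single match is near the background. The remaining members, among them Eln and Lox, were left out of this search, so the motif in front of them was not tested. Some windows of Efemp2 overlap. Printed are a window of Fbln5, the gene among the 4 that fell, at chr12:101819120-101819369 on the minus strand, and the Mfap2 window with the motif, at chr4:141010174-141010423 on the plus strand. Both read 5′ to 3′ along the gene, and capitals mark the motif, whose first base lies 176 bases before the Mfap2 start.
Fbln5 window: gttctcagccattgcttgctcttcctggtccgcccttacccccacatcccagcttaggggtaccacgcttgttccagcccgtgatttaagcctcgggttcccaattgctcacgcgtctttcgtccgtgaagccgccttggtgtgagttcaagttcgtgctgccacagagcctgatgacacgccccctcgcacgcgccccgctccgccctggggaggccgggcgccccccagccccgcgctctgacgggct
Mfap2 window: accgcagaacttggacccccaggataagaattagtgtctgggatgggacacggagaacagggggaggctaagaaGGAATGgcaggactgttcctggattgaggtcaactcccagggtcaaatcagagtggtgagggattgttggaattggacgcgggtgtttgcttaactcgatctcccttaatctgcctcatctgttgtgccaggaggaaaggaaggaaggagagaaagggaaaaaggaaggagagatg

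Genes around this set moved in both directions. Of 78 genes in 4 further lists, 68 were tested, of which 12 were called higher and 7 lower, beside 4.11% and 2.68% of all genes. Their median log2 fold change was 0.23. Without control 3 the number called fell from 19 to 10, and without control 2 or iPCKO 2 it was 12. With Y-linked transcripts as a covariate 2 of the 19 were called, Pcolce and Itgb3, and 0 in the libraries without these transcripts (limma, with 19 higher and 10 lower at an unadjusted p below 0.05), so the counts of fits given for single genes cover left-out libraries alone.

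Among 27 tested genes of other elastic fibre and microfibril proteins, 5 rose and 4 fell, with a median of 0.17. Adamtsl3 was 76.88 ± 6.24 RPKM in controls and 30.86 ± 4.76 RPKM in iPCKO libraries, so that it fell, with a log2 fold change of -1.32 (SE 0.12, limma adjusted p = 0.00032). Ltbp2, a latent TGF-beta binding protein family member that binds fibrillin and fibulin-5, fell to 204.16 ± 19.12 RPKM in iPCKO libraries from 409.30 ± 36.39 RPKM in controls, with a log2 fold change of -1.0 (SE 0.12, adjusted p = 0.0011). Ltbp2 was therefore the gene of this list with the largest loss in RPKM, and its level was above that of Fbn1 in the controls. Adamts17, a secreted protease linked to microfibrils, fell by 0.95 on the log2 scale. Higher were Emilin2 at a log2 fold change of 1.96, Emilin3 at 1.35, and Vcan, a proteoglycan that binds microfibrils, at 0.91. The calls of Adamtsl3, Ltbp2, Adamts17 and Emilin2 held in all 6 fits without a library, that of Emilin3 in 2 and that of Vcan in 1. Leukocyte markers were higher in the same libraries, and their part in the rises of this list was not tested. The remaining called genes, named after their values had been seen, were Adamts10 at -0.85, Ltbp4 at 0.65 and Thsd4 at 0.59. Ltbp4, which joins fibulin-5 to microfibrils, rose from 98.91 ± 11.36 to 155.18 ± 17.11 RPKM (adjusted p = 0.0093, called in 1 of 6 fits without a library).

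Genes that supply or mature the lysyl oxidases gave 3 lower and 0 higher of 11 tested, with a median of -0.03 and, at an unadjusted limma p below 0.05, 4 lower and 4 higher. Pcolce, an enhancer of procollagen C-proteinase, the enzyme class that also matures pro-LOX, was 53.05, 62.61 and 61.50 RPKM in controls and 23.06, 24.15 and 25.58 RPKM in iPCKO libraries. The groups were far apart for Pcolce, with a log2 fold change of -1.28 (SE 0.10, limma adjusted p = 0.0001) that held without any library and with the Y-linked covariate. Its relative Pcolce2 fell by 0.80 on the log2 scale, called in 1 of 6 fits without a library. The proteinase gene Bmp1 of the same list, named after its values had been seen, was not called. Its means were 88.18 RPKM in controls and 85.19 RPKM in iPCKO libraries (log2 fold change -0.05, limma adjusted p = 0.77). Atp7a, the copper pump that loads LOX, was 45.33 ± 2.35 RPKM in controls and 26.96 ± 2.74 RPKM in iPCKO libraries, a log2 fold change of -0.75 (SE 0.10, adjusted p = 0.0015), called in 5 of 6 such fits.

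Enzymes that cut elastin and their inhibitors gave 5 higher and 0 lower of 15 tested, with a median of 0.42 and, at an unadjusted p below 0.05, 7 higher and 3 lower. The proteases were Mmp9, at 0.65, 0.92 and 0.75 RPKM in controls and 3.19, 12.89 and 28.36 RPKM in iPCKO libraries, and Ctss, at 9.69 ± 3.57 and 30.16 ± 5.71 RPKM. The inhibitors were Slpi, from 0.99 ± 0.37 to 8.37 ± 4.94 RPKM, Timp1, from 6.59 ± 0.46 to 16.58 ± 4.46 RPKM, and Timp3, from 34.71 ± 3.53 to 90.73 ± 15.46 RPKM. Mmp9, Ctss and Slpi are also genes of leukocytes, whose markers were higher in the same libraries, and 8 of 10 leukocyte markers and 5 of 10 neutrophil markers were called higher. The part of these cells was not tested. Timp1 and Timp3 were called in all 6 fits without a library, Ctss in 4, Slpi in 2 and Mmp9 in 1. The other 6 genes of this list were below 1 RPKM in every library and were not tested, among them, named after their values had been seen, the elastases Elane, at 0.23 RPKM or less, and Mmp12, at 0.41 RPKM or less.

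Among 15 genes of the elastin chaperone and of receptors for elastin or microfibrils, 2 were higher and 0 lower, with a median of 0.24 and, at an unadjusted p below 0.05, 7 higher and 1 lower. Itgb3, an integrin subunit that binds fibrillin, rose to 11.93 ± 1.26 RPKM from 4.47 ± 0.49 RPKM in controls, with a log2 fold change of 1.40 (SE 0.12, limma adjusted p = 0.00019). Itga5, the fibronectin receptor subunit, rose from 17.86 ± 1.05 to 29.34 ± 1.34 RPKM. Both calls held without any library. The part of leukocytes in these rises was not tested either.

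**Figure D4:**
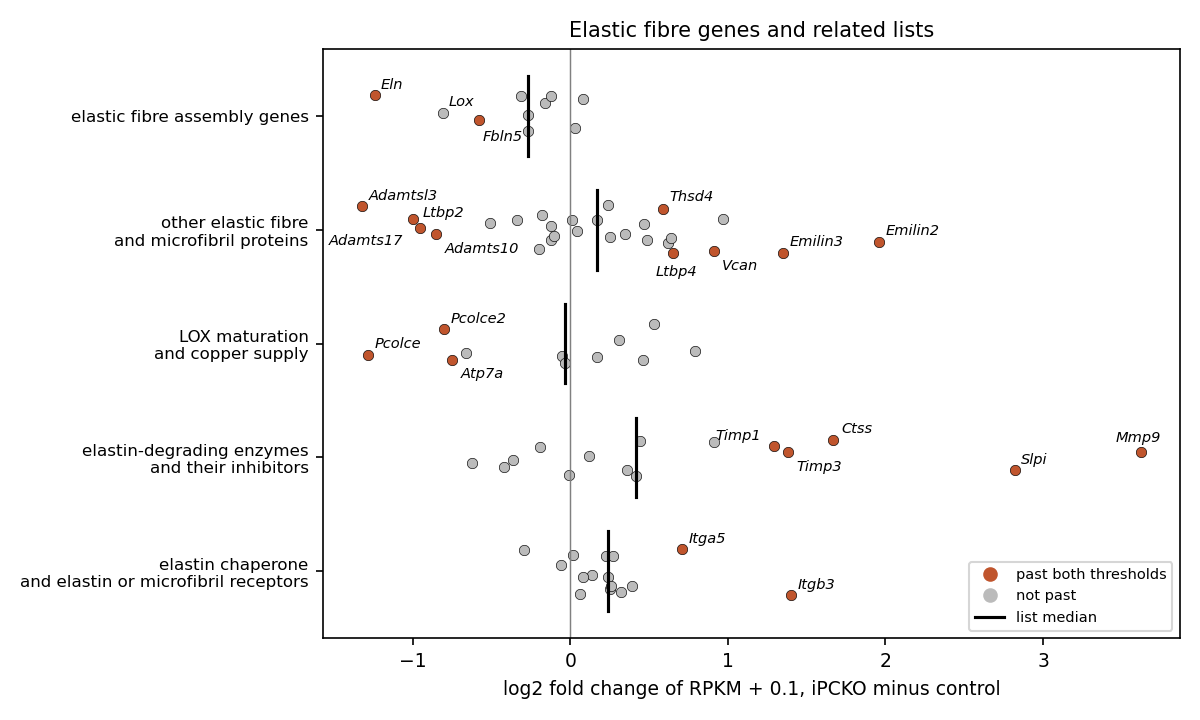
Log2 fold change of RPKM + 0.1, iPCKO minus control, of each tested gene of the elastic fibre assembly set and of 4 related lists, with orange for genes past both thresholds, grey for others and a black line for each list's median; vertical scatter carries no value. Called genes lie on both sides of 0 in the list of other elastic fibre and microfibril proteins, below 0 for lysyl oxidase maturation and above 0 for elastin-degrading enzymes.

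Elastin is also made by cells other than pericytes, so markers of these cells were read in the same libraries. Smooth muscle markers summed to 1388.8 to 1560.1 RPKM in controls and 1516.0 to 1637.3 RPKM in iPCKO libraries, with Acta2 at means of 683.11 and 705.52, Myh11 at 145.57 and 137.53 and Tagln at 366.13 and 315.90 RPKM. Of its 10 genes 2 were called higher and 2 lower, and these were, named after their values had been seen, Actg2 at a log2 fold change of 1.59, Cnn1 at 1.11, Lmod1 at -0.97 and Synpo2 at -1.13. The list of alveolar myofibroblast markers was higher in every iPCKO library, at 906.8 to 1103.7 RPKM against 539.1 to 737.7, with 3 of 10 genes called higher and 0 lower (6 and 0 at an unadjusted limma p below 0.05). Pdgfra, the receptor that defines these cells, was at 35.98 and 39.30 RPKM (adjusted p = 0.63). Markers of both cell types were thus present in the pulldown. The summed level of neither list was lower in iPCKO libraries, although single smooth muscle genes were. Such sums follow genes with large changes in RPKM, such as Actg2, which rose from 73.7 to 221.97 RPKM. The median log2 fold change was 0.0 for smooth muscle and 0.47 for myofibroblast markers, with 5 of 10 and 2 of 10 below 0. The part of these cells in the Eln level was not tested. Fibroblast markers summed to 300.4 to 339.1 against 275.9 to 359.6 RPKM, and Tcf21, which marks lipofibroblasts, was 52.60 against 35.93 RPKM (adjusted p = 0.018, not called). Of 11 tested fibroblast markers 1 was called, Npnt, which fell from 61.76 ± 3.74 to 27.63 ± 3.01 RPKM (log2 fold change -1.16, limma adjusted p = 0.00026) and was named after its values had been seen. Mesothelial markers were low but higher in every iPCKO library, at 14.3 to 16.5 against 8.5 to 11.6 RPKM, and 1 of them, Msln, also named after its values had been seen, was called higher at 0.98, while Wt1, Lrrn4 and Gpm6a were below 1 RPKM throughout. Chondrocyte markers summed to at most 3.0 RPKM, and no gene of the latter was tested. Endothelial and epithelial markers summed to 214.7 to 225.3 and 571.2 to 657.0 RPKM in controls and to 213.0 to 229.9 and 833.4 to 884.8 RPKM in iPCKO libraries.

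The pericyte list summed to 4544.3 to 5627.5 RPKM in controls and 4062.5 to 5096.1 RPKM in iPCKO libraries. The ranges of these sums overlapped, and both ends were lower in iPCKO libraries. The mean of the log2 values of the 12 markers, in which each gene counts equally, differed by 0.01 (iPCKO minus control). That value does not describe the sums. The median log2 fold change of the list was -0.16, with 8 of 12 below 0, and 0 of its 12 markers were below 1 RPKM throughout. The mean of log2 values covers members that moved both ways, with 3 of 12 called higher and 2 lower. Within it Pdgfrb was 1533.31 and 1336.69 RPKM (limma adjusted p = 0.46). Notch3 fell from 313.37 to 163.27 RPKM and Cspg4 rose from 81.78 to 170.47 RPKM, both called. The other called genes, named after their values had been seen, were Rgs5 at a log2 fold change of -1.15, Kcnj8 at 1.03 and Abcc9 at 1.15. Eln at 1702.36 RPKM was thus at a level like that of Pdgfrb in the controls, and at 725.27 RPKM below it in the iPCKO libraries.

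The genes whose pattern over the 6 libraries was most like that of Eln were Exoc3l4, Adam33, Sntg2, Kcna6 and Cpeb1, by the root mean square difference of centred log2 values, which was 0.122 for Exoc3l4 and 0.18 for Cpeb1. Their log2 fold changes were -1.22, -1.28, -1.04, -1.46 and -1.18, and their control means were 8.93, 1.57, 8.85, 1.69 and 2.26 RPKM. None of the other 9 elastic fibre genes was near the top of this order. Lox came nearest with rank 287 and a difference of 0.374, then Fbln5 with rank 317 and 0.382. The other 7 ranked from 1836 to 7524 of 12034 genes. Pearson r with Eln was 0.832 for Lox, 0.936 for Fbln5 and between -0.27 and 0.658 for the other 7. The 6 libraries share the contrast between groups, so likeness is given as a description.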

How the data were processed

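RNA on HA-tagged ribosomes was immunoprecipitated from lungs of 3 mice a group, and groups and replicate numbers came from the labels. Libraries were stranded. The authors aligned the reads with TopHat to the mm10 assembly (GRCm38), obtained gene counts with HTSeq 0.6.1 and deposited RPKM values for each sample. The exon length used is not given in the sources used here. RPKM hide the reads behind a value, so depth was read from the steps of low values, of which 74.9% to 76.8% were within 0.02 reads of a whole number.

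Symbols and 1-based positions came from GENCODE M21 (GRCm38), in which 21375 of 21603 genes had a symbol. Genes that reached 1 RPKM in 3 or more of the 6 samples were kept. Values were tested as log2(RPKM + 0.1) in limma 3.58.1 (R 4.3.3) with an intensity trend, two-sided, with Benjamini-Hochberg adjustment over all genes kept; fold changes on this scale understate changes of low genes. The thresholds were those of the study. No count model was used. Ratios were tested by exact permutation (scipy 1.17.1), two-sided. The script was tested on simulated data.

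The members and all gene lists were chosen with earlier results of these data known. Named were all members, the called genes of each related list (or, if more than 6, the 3 largest changes in each direction), the deleted genes, defining markers, and the 5 genes most like Eln. Alternatives covered pseudocounts, filters, scaling, thresholds, variance models, each sample left out, the replicate block and Y-linked transcripts. A fit of the libraries without Y-linked transcripts and 4 ratios of related genes were added after seeing the data. The replicate numbers did not pair the samples, and they name mice that the sources describe as separate animals.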

Additional observations from a re-analysis of the deposited data

How the results depend on the processing

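With the 3 libraries per group, the counts of called genes moved more than the fold changes, and the causes were not tested. Over all tested genes, 817 were called, against 1313 at an adjusted p of 0.05, 411 at an absolute log2 fold change above 1, 1590 with sample weights, 119 with Y-linked transcripts as a covariate and, in a fit added after seeing the data, 31 with only the libraries without these transcripts (1 control), which assumes that the lone control varies like the iPCKO libraries. Leaving out 1 library gave 382 to 899. Of the 10 elastic fibre genes, 2 were called, against 1 above an absolute change of 1, 1 with no intensity trend, and 0 with no filter on low values, with the Y-linked covariate and with only the libraries without Y-linked transcripts. In each of those 3 limma fits 3 genes were lower and 0 higher at an unadjusted p below 0.05. Leaving out 1 library gave 0 to 2, with 3 or 4 lower and 0 higher at an unadjusted p below 0.05. Of the related lists 19 genes were called, against 11, 30, 2 and 0 with a change above 1, sample weights, the Y-linked covariate and the libraries without Y-linked transcripts (in the last, 19 higher and 10 lower at an unadjusted p below 0.05), and 10 to 21 without 1 library.

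The log2 fold change of Eln stayed at -1.24 with no filter (adjusted p = 0.034, with more genes tested) and was -1.48 with the Y-linked covariate (adjusted p = 0.031) and -1.49 with the libraries without these transcripts (adjusted p = 0.085). It was -1.35 to -1.06 without 1 library. Direction turned for Mfap2 at -0.06 and Mfap4 at -0.1 with quantile normalization, and for Mfap4 at -0.07 with the Y-linked covariate, -0.06 without Y-linked libraries, and -0.03 without control 3 or without iPCKO 2 (range without 1 library -0.03 to 0.09). Same-numbered control and iPCKO libraries correlated in their deviations at 0.238, 0.092 and 0.022, and control 2 was closest to iPCKO 3 at 0.273, so the numbers were not taken as pairs. With the replicate block 922 genes were called, and Lox passed at -0.81 (adjusted p = 0.0043). With sample weights Fbln5 was -0.43 and not called, and Lox was -0.61 and called. The 9 ratios of Eln kept their direction under the pseudocounts and left-out libraries tried, but the ratio to Lox ran from -0.70 to -0.18 and that to Mfap5 from -1.14 to -0.56 without 1 library.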
